A study of Mus musculus with 8 samples.

Results

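The Fc receptor-like (FCRL) family was examined in tumor-associated macrophages (TAMs): *Fcrl1*, *Fcrl5*, *Fcrl6*, *Fcrla*, *Fcrlb* and *Fcrls*. The 6 genes were found by symbol among the 26939 genes of the joined count tables. *Fcrl5* was picked because its counts were close to 0 in *Unc93b1* 3d/3d libraries, and *Fcrls* because it was higher there, so the values of these genes between genotypes are given as a description without a test.

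Bulk RNA-seq was performed on 8 libraries of TAMs, 2 for each combination of genotype (WT or *Unc93b1* 3d/3d) and treatment (control or αMARCO). All mice were C57BL/6J females of 8 to 14 weeks carrying EO771 breast cancer cells in the mammary fat pad, and all libraries came from viable cells sorted at day 21 as positive for CD45, CD11b and F4/80 and negative for Gr-1. *Unc93b1* 3d/3d mice carry a mutated UNC93B1, the chaperone that brings nucleic acid-sensing Toll-like receptors (TLRs) to endosomes, and lack functional TLR3, TLR7 and TLR9. αMARCO is a rat IgG1 (clone ED31) against the scavenger receptor MARCO, and was injected at 100 µg on days 3, 6, 9 and 12. The labels describe the control mice as untreated or PBS, while the treatment protocol names an isotype antibody (rat IgG1, clone TNP6A7), so the injection that controls received is not settled. The mutation is germline, so every cell of the host carries it. Each control library was pooled from 3 mice, and pooling of the αMARCO libraries is not given in the sources used here. Replicate 2 of *Unc93b1* 3d/3d control has its genotype written as 3d/4d in 1 label and as 3d/3d in its title.

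FCRL proteins are relatives of the classical Fc receptors for immunoglobulin and are best known from B cells. FCRL5 is a surface receptor of marginal zone and B1 B cells in the mouse, and its cytoplasmic tail holds both an ITAM-like and an ITIM tyrosine motif, through which kinases and phosphatases can raise or dampen B cell receptor signalling. FCRL1 is a surface co-receptor of B cells, and FCRL6 is known from cytotoxic lymphocytes in humans. FCRLA and FCRLB stay inside the cell, and *Fcrls* encodes a scavenger receptor-related protein that is widely used as a marker of microglia.

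The library totals ran from 15182618 to 26411936 counts, and the floor of 3 counts corresponds to 0.117 to 0.205 CPM, the count scaled to the library total after TMM normalization. The sort markers were abundant in all 8 libraries: *Adgre1*, which encodes F4/80, was at 333 to 719 CPM and *Itgam*, which encodes CD11b, at 291 to 732 CPM, while the neutrophil gene *Ly6g* had 2 to 16 counts. *Unc93b1* itself was at 850 and 965 CPM in WT control, 539 and 659 CPM in *Unc93b1* 3d/3d control, 746 and 718 CPM in WT αMARCO and 548 and 644 CPM in *Unc93b1* 3d/3d αMARCO. Gene counts do not read the mutation, so this checks no label. The 2 *Unc93b1* 3d/3d αMARCO libraries differed from each other with an SD of 1.01 on the log2 scale over 16620 genes, against 0.44 to 0.58 in the other groups. Values of tested members without each of them are given between genotypes with αMARCO and for the difference between genotypes. With αMARCO in *Unc93b1* 3d/3d they are given for *Fcrls* alone.

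*Fcrl5* (ENSMUSG00000048031, chr3:87435773-87500678, plus strand, GRCm38) was abundant in WT TAMs and close to the floor in *Unc93b1* 3d/3d TAMs. The WT control libraries held 3501 and 4191 *Fcrl5* counts, and the *Unc93b1* 3d/3d controls 2 and 5. After αMARCO the WT libraries held 1509 and 1707, and the *Unc93b1* 3d/3d libraries 9 and 2. Thus all 4 WT libraries were above all 4 *Unc93b1* 3d/3d libraries, and within WT both αMARCO libraries were below both controls. In CPM, *Fcrl5* was at 208 ± 33.7 (SD, n = 2) in WT control, 69.9 ± 4.30 in WT αMARCO, 0.190 ± 0.091 in *Unc93b1* 3d/3d control and 0.268 ± 0.186 in *Unc93b1* 3d/3d αMARCO. The last pair of groups overlapped.

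From the summed counts and library totals, the *Fcrl5* level in control TAMs in WT was 1009 times that in *Unc93b1* 3d/3d, with a 95% exact interval of 489 to 2509.9 that covers counting error only. With αMARCO the ratio was 236, with an interval of 132 to 473. The fitted log2 fold change of WT over *Unc93b1* 3d/3d in edgeR was 9.99 in control and 7.87 with αMARCO, and its SE is not given because in control it was narrower than the counting interval. DESeq2 gave 10.03 (SE 0.57) and 7.90 (SE 0.54).

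**Figure D1:**
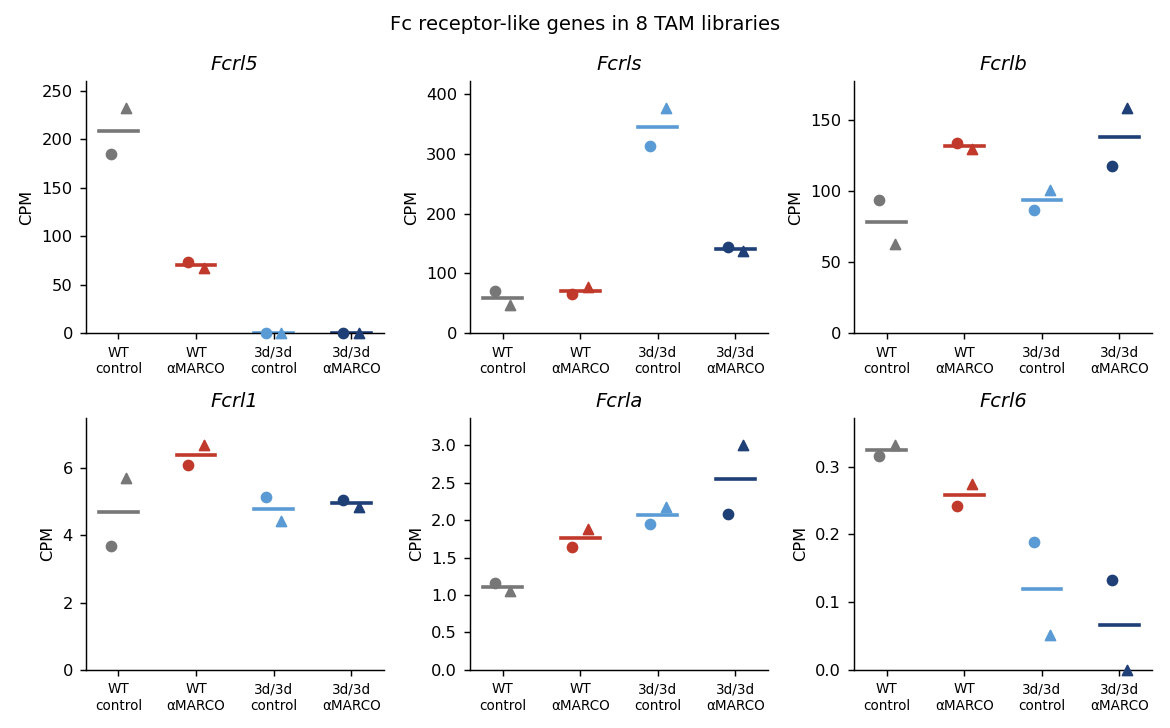
CPM (TMM-scaled, linear axis from 0) of the 6 Fc receptor-like genes in the 8 libraries; circles are replicate 1, triangles replicate 2, and bars the mean of 2. *Fcrl5* is at 66.8 to 232 CPM in the 4 WT libraries and at 0.126 to 0.400 CPM in the 4 *Unc93b1* 3d/3d libraries, while *Fcrls* is highest in *Unc93b1* 3d/3d control.

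A second transcript beside *Fcrl5* had the same direction of difference between genotypes. It is listed without a gene symbol at chr3:87432915-87435579 on the minus strand, and its end lies 0.194 kb before the start of *Fcrl5* on the opposite strand. It had 56 and 58 counts in WT control, 44 and 36 counts in WT αMARCO and 0 counts in each of the 4 *Unc93b1* 3d/3d libraries. The transcript was not listed for the *Unc93b1* 3d/3d treatment comparison, where the lowest gene total was 2 counts. Its 0 counts in *Unc93b1* 3d/3d control were therefore filled in. Against a floor of 3 counts over the group, its level was at least 34.9-fold higher in WT control and at least 21.5-fold higher in WT αMARCO than in the matched *Unc93b1* 3d/3d group. With αMARCO in WT its log2 fold change was -0.81 (SE 0.34), with an adjusted P of 0.0913 in edgeR. The counting is not stated to use strand.

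The 193 bases between both starts hold no annotated exon, and are shown because the transcripts on either side were both close to absent in *Unc93b1* 3d/3d TAMs. They are read from RefSeq (GRCm38.p6, chr3:87435580-87435772, plus strand), with the letters ACTTCCT, an ETS-type motif, in capitals.
Fcrl5 upstream: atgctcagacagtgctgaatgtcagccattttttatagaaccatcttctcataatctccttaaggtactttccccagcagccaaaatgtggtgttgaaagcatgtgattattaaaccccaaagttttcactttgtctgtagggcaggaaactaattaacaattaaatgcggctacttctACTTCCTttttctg

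The start regions of the family were then compared over the RefSeq windows of 250 bases before to 50 bases after each gene start, and all 6 genes matched. Both strands were searched for 2 motifs. ACTTCCT (or AGGAAGT, its reverse complement) was chosen after the sequences were read, and was found in 5 of 6 windows (all but *Fcrla*), against 9.35% of 32851 windows of all genes. The AP-1-type motif TGANTCA was found in 3 of 6 (*Fcrl1*, *Fcrl5* and *Fcrlb*, against 7.81%). Matches of the motifs overlapped each other in 0 cases. A match is no evidence of binding, and genes that differed in opposite directions between genotypes held the same letters. The 30 bases around each ACTTCCT or AGGAAGT match are shown on the gene's strand, with the match in capitals, since *Fcrl5* and *Fcrls* both continue it with a run of t.
Fcrl5 (chr3:87435747-87435776, plus strand, 23 bases before the start): gcggctacttctACTTCCTttttctgattc
Fcrls (chr3:87263582-87263611, minus strand, 75 bases before the start): gacaactttgccACTTCCTttttttcctat
Fcrl1 (chr3:87376360-87376389, plus strand, 15 bases before the start): cttccgaccacgACTTCCTcaaacctcaga
Fcrl6 (chr1:172602574-172602603, minus strand, 40 bases before the start): ctgtcagctaccACTTCCTgaaaccttaac
Fcrlb (chr1:170913052-170913081, minus strand, 128 bases before the start): tccaccatcttgAGGAAGTgggaatggaca

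Distances are from the RefSeq start to the first base of the match. The *Fcrls* stretch lies within the longer *Fcrls* gene of GENCODE M21, with 18 of its 30 bases in an exon. The *Fcrl6* and *Fcrlb* stretches lie before the gene, and those of *Fcrl1* and *Fcrl5* reach 3 and 4 bases into the first exon.

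*Fcrls* (ENSMUSG00000015852, chr3:87250758-87263738, minus strand), which lies 172 kb from *Fcrl5* on the same chromosome, had the opposite distribution between genotypes. The WT controls held 1326 and 851 counts, and the *Unc93b1* 3d/3d controls 5003 and 7430. After αMARCO the WT libraries held 1358 and 1950, and the *Unc93b1* 3d/3d libraries 3236 and 1997. In CPM, *Unc93b1* 3d/3d control was highest at 345 ± 44.4 (SD, n = 2), *Unc93b1* 3d/3d αMARCO followed at 140 ± 5.02, and WT αMARCO at 71.0 ± 7.59 and WT control at 58.5 ± 16.1 overlapped. The log2 fold change of WT over *Unc93b1* 3d/3d was -2.58 (SE 0.20) in control, or 5.97-fold higher in *Unc93b1* 3d/3d, and -0.99 (SE 0.18) with αMARCO, or 1.99-fold higher.

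The other 4 genes had smaller differences between genotypes or few counts. *Fcrlb* (ENSMUSG00000070524, chr1:170907273-170912941, minus strand), for an intracellular FCRL protein, had 1771 and 1133 counts in the WT controls and 2763 and 3306 after αMARCO in WT, against 1383 and 1992 in the mutant controls and 2648 and 2316 after αMARCO in the mutant, and its genotypes overlapped in CPM under both treatments. *Fcrl1* (ENSMUSG00000059994, chr3:87376387-87402934, plus strand), between *Fcrls* and *Fcrl5* on chromosome 3, had 70 and 103 counts in the WT controls and 126 and 171 after αMARCO in WT, against 82 and 87 in the mutant controls and 114 and 71 after αMARCO in the mutant. Its genotypes overlapped in control, while with αMARCO both WT libraries were above both mutant libraries in CPM. *Fcrla* (ENSMUSG00000038421, chr1:170917576-170927583, minus strand) had 22 and 19 counts in the WT controls and 34 and 48 after αMARCO in WT, against 31 and 43 in the mutant controls and 47 and 44 after αMARCO in the mutant. In CPM all WT *Fcrla* libraries were below the mutant libraries under both treatments. The processed pseudogene *Gm2962*, with 28 to 49 counts, lies within the span of *Fcrla* on the same strand. *Fcrla* transcripts shared 0 of 1848 words of 31 bases with other genes, and mixing of reads with *Gm2962* was not tested. *Fcrl6* (ENSMUSG00000070504, chr1:172596642-172602551, minus strand) had 6 and 6 counts in the WT controls and 5 and 7 after αMARCO in WT, against 3 and 1 in the mutant controls and 3 and 0 after αMARCO in the mutant, and did not pass the filter on low counts in any comparison. The WT *Fcrl6* libraries were above the mutant libraries under both treatments. The share of all genes whose genotypes separate in this way was not counted, so these orders of *Fcrl1*, *Fcrla* and *Fcrl6* are a description only. The *Fcrl6* ratio of WT over *Unc93b1* 3d/3d was 2.75 in control (95% exact interval 0.835 to 11.7) and 3.23 with αMARCO (0.871 to 17.8). These intervals cover counting error only, not the spread between libraries, and are a description without a test.

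In control TAMs, log2 fold changes of WT over *Unc93b1* 3d/3d were -0.28 (SE 0.19) for *Fcrlb*, -0.04 (SE 0.30) for *Fcrl1* and -0.91 (SE 0.41) for *Fcrla*. The family was picked on this contrast, so no test of a member is given in it. A gene was called in edgeR with an adjusted P no greater than 0.05 and a log2 fold change of 0.5 or more in either direction, and of all 15600 genes 13% were called between controls, 6.58% higher and 6.4% lower in WT. With αMARCO the values were -0.08 (SE 0.21) for *Fcrlb*, 0.35 (SE 0.27) for *Fcrl1* and -0.53 (SE 0.41) for *Fcrla*. Without replicate 1 or replicate 2 of *Unc93b1* 3d/3d αMARCO, the log2 fold change with αMARCO was 8.94 or 7.40 for *Fcrl5*, -0.94 or -1.05 for *Fcrls*, -0.26 or 0.13 for *Fcrlb*, 0.40 or 0.31 for *Fcrl1* and -0.76 or -0.27 for *Fcrla*. In these fits 1 library stands for its group and the WT libraries alone supply the spread. Of all 15722 genes 0% were called with αMARCO in edgeR, with 1076 at an unadjusted P under 0.05, while DESeq2 called 214 genes.

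Levels of different genes were compared per gene length, as the deposited FPKM. In WT control, *Fcrlb* at 71.6 and 48.2 FPKM and *Fcrl5* at 52.2 and 65.8 FPKM overlapped, ahead of *Fcrls* at 29.5 and 19.9 FPKM. *Fcrl1*, *Fcrla* and *Fcrl6* were at 0.116 to 1.58 FPKM. In *Unc93b1* 3d/3d control, *Fcrls* led at 135 and 161 FPKM, followed by *Fcrlb* at 67.7 and 78.2 FPKM, and *Fcrl5* was at 0.036 and 0.072 FPKM, below *Fcrl1* at 1.45 and 1.23 FPKM. In WT αMARCO, *Fcrlb* led at 104 and 99.2 FPKM and *Fcrls* at 28.2 and 32.2 FPKM was above *Fcrl5* at 21.0 and 18.9 FPKM. In *Unc93b1* 3d/3d αMARCO, *Fcrlb* led at 91.6 and 122 FPKM, ahead of *Fcrls* at 61.6 and 58.1 FPKM. The same 3 genes, *Fcrl5*, *Fcrls* and *Fcrlb*, were thus the family members above 2 FPKM in WT TAMs, and *Fcrlb* and *Fcrls* in *Unc93b1* 3d/3d TAMs.

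Sequence shared between genes could mix their counts. Of the 31-base words in GENCODE M21 transcripts, 0 were shared between any 2 members. *Fcrl5* shared 2 of 3506 such words with another gene. *Fcrl6*, with at most 7 counts in a library, shared 22 of 2701 with 242 other genes, and the other 4 members shared 0.

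The neighbours of *Fcrl5* did not share its distribution, apart from the unnamed transcript. *Etv3*, for an ETS family repressor 24.7 kb beyond the end of *Fcrl5*, was 1.58-fold higher in WT control (log2 fold change 0.66, SE 0.096, adjusted P = 0.00258 in edgeR). *Fcrl1*, 32.8 kb before *Fcrl5*, is described above. *Cd5l*, for a secreted macrophage protein, had 2 to 62 counts in the 8 libraries and a log2 fold change of -0.05 (SE 0.68, adjusted P = 0.967). *Arhgef11* had -0.28 (SE 0.11, adjusted P = 0.111). Around *Fcrls*, *Kirrel* was lower in WT control (-0.63, SE 0.18, adjusted P = 0.0369) and the pseudogene *Gm10705* was higher (1.93, SE 0.35, adjusted P = 0.00973). With all 8 libraries in 1 model the calls of *Etv3* (adjusted P = 0.135), *Kirrel* (adjusted P = 0.586) and *Gm10705* (adjusted P = 0.185) were lost in edgeR.

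On chromosome 1, within 200 kb of *Fcrla* and *Fcrlb*, *Fcgr4*, for an activating IgG receptor, was 3.57-fold higher in WT control (1.83, SE 0.15, adjusted P = 0.000196 in edgeR), and the phosphatase gene *Dusp12* was 1.69-fold higher (0.76, SE 0.22, adjusted P = 0.0434). The transcript *Gm38204*, antisense to *Fcgr2b*, had the opposite direction, 5.42-fold lower in WT control (-2.44, SE 0.35, adjusted P = 0.00234), and as counting is not stated to use strand its reads cannot be told apart from those of *Fcgr2b*. The calls of *Gm38204* (adjusted P = 0.117) and *Dusp12* (adjusted P = 0.184) were lost in the model of all 8 libraries. Near *Fcrl6*, *Igsf9* (2.25, SE 0.17), *Slamf9* (1.75, SE 0.18) and *Slamf8* (1.33, SE 0.17) were also higher in WT control, with adjusted P of 0.000299, 0.00153 and 0.00259. Their counts were 343 to 6922, while *Fcrl6* had at most 7. The other tested neighbours on chromosome 1 were not called between controls: *Dusp23*, *Cfap45*, *Tagln2*, *Cfap126*, *Fcgr2b*, *Fcgr3*, *Atf6*, *Gm9929*, *Sdhc*, *4933439K11Rik*, *Gm2962*, *Gm7804*, *Gm10522* and *Gm37125*, with log2 fold changes from -1.05 (*Gm37125*) to 1.84 (*Gm7804*).

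With αMARCO in WT, neighbours were called in both directions. On chromosome 3, *Kirrel* (-1.40, SE 0.21) and *Gm10705* (-0.79, SE 0.15) fell, with adjusted P of 0.00108 and 0.0035 in edgeR. On chromosome 1, *Gm38204* (2.54, SE 0.32) and *Gm10522* (1.45, SE 0.22) rose, with adjusted P of 0.000521 and 0.00109, while *Slamf9* (-0.81, SE 0.16) and *Sdhc* (-0.50, SE 0.077) fell, with adjusted P of 0.00844 and 0.00122. The neighbours *Fcgr4* and *Fcgr2b* are given with the Fc receptors. Of these neighbours *Gm10522* kept its call with all 8 libraries in 1 model. *Gm26110*, tested with αMARCO but not between controls, had 0.67 (SE 0.52, adjusted P = 0.348).

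**Figure D2:**
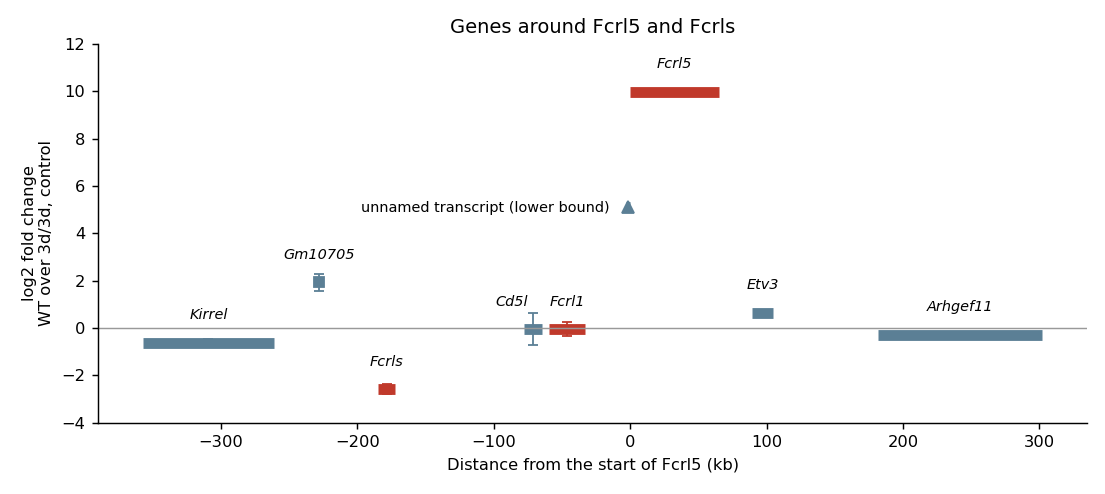
Log2 fold change of WT over *Unc93b1* 3d/3d in control TAMs (vertical axis, error bars are SE, not drawn for *Fcrl5*) for tested genes within 200 kb of *Fcrl5* or *Fcrls*, drawn to scale along the distance from the start of *Fcrl5* in kb; FCRL genes are red, and the triangle is a lower bound. *Fcrl5* stands at 9.99, the unnamed transcript beside it at 5.12 or above, and the other non-FCRL genes between -0.63 and 1.93.

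The genes with the pattern most like *Fcrl5* were sought among 16620 genes, by Pearson's r of log2 CPM over the 8 libraries. The 5 highest were *Cd300e* (r = 0.996), the unnamed transcript beside *Fcrl5* (r = 0.996), a further unnamed transcript on chromosome 8 (r = 0.991), *Asb2* (r = 0.990) and *Pecam1* (r = 0.986). *Cd300e*, for a receptor of the CD300 family found on monocytes, was at 558 and 615 CPM in WT control, 253 and 271 CPM in WT αMARCO, 10.04 and 7.56 CPM in *Unc93b1* 3d/3d control and 13.6 and 9.78 CPM in *Unc93b1* 3d/3d αMARCO. It had the same order of groups as *Fcrl5*, WT control above WT αMARCO above both *Unc93b1* 3d/3d groups. *Asb2*, for the substrate-binding subunit of a ubiquitin ligase, was at 58.9 and 75.0 CPM in WT control, 32.3 and 31.2 CPM in WT αMARCO and 1.22 to 2.46 CPM in *Unc93b1* 3d/3d libraries. *Pecam1*, for the adhesion molecule CD31, stayed at 24.1 to 28.9 CPM in *Unc93b1* 3d/3d libraries and reached 203 and 199 CPM in WT control.

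For *Fcrls* the 5 highest were *Fam198b* (r = 0.986), *Gas6* (r = 0.983), *Fabp5* (r = 0.983), *Nxpe5* (r = 0.970) and *Ckap4* (r = 0.968). *Gas6*, the bridging ligand of the TAM receptor kinases, was at 53.4 and 52.4 CPM in WT control, 74.5 and 70.7 CPM in WT αMARCO, 249 and 303 CPM in *Unc93b1* 3d/3d control and 130 and 140 CPM in *Unc93b1* 3d/3d αMARCO. *Fabp5*, for a fatty acid-binding protein, was at 494 to 602 CPM in WT libraries and at 662 to 1106 CPM in *Unc93b1* 3d/3d libraries. Every r is over the same 8 libraries in 4 groups, with 2 libraries a group, and carries no test. Between the members, r was -0.886 for *Fcrl5* and *Fcrls*, which were picked for opposite directions between genotypes in these libraries. It was -0.832 for *Fcrl5* and *Fcrla*, and 0.745 for *Fcrla* and *Fcrlb*.

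**Figure D3:**
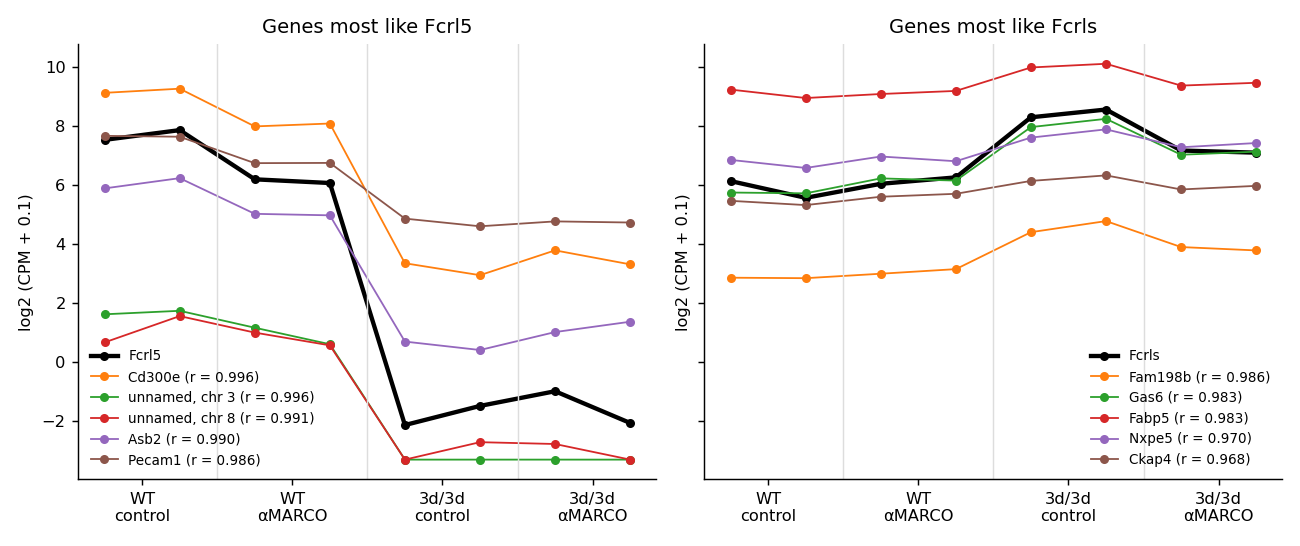
Log2 of CPM + 0.1 (vertical axis) in the 8 libraries, 2 per group along the horizontal axis, for *Fcrl5* (left, black) and *Fcrls* (right, black) with the 5 genes of highest Pearson's r each; lines only join the points of a gene. *Cd300e*, at 253 to 615 CPM in WT and 7.56 to 13.6 CPM in *Unc93b1* 3d/3d, follows *Fcrl5*, and *Gas6* runs close to *Fcrls*.

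The question of the αMARCO comparison is how the treatment changed TAMs in each genotype. These tests were not what the genes were picked on, although the control libraries are shared with the genotype comparison. In WT TAMs, *Fcrl5* fell and *Fcrlb* rose with αMARCO. *Fcrl5* went from 185 and 232 CPM to 72.9 and 66.8 CPM, and fell by 1.58 on the log2 scale (SE 0.12), or 2.98-fold, lower in both αMARCO libraries than in both controls, with an adjusted P of 9.18e-05 in edgeR's quasi-likelihood test. *Fcrlb* went from 93.4 and 62.8 CPM to 133 and 129 CPM, and rose by 0.75 (SE 0.18), or 1.68-fold, with an adjusted P of 0.0278. Thus 2 of 5 tested members were called, where 20.7% of 15630 genes were, 11.8% lower and 8.91% higher with αMARCO.

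The other 3 members did not pass in WT TAMs. *Fcrla* went from 1.16 and 1.05 CPM to 1.64 and 1.88 CPM (0.67, SE 0.40, adjusted P = 0.218 in edgeR). *Fcrl1* went from 3.69 and 5.71 CPM to 6.09 and 6.69 CPM (0.45, SE 0.25, adjusted P = 0.196). *Fcrls* went from 69.9 and 47.1 CPM to 65.6 and 76.3 CPM (0.28, SE 0.19, adjusted P = 0.311), and its groups overlapped.

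The *Fcrl5* decrease was called under every alternative run, with log2 fold changes of -1.74 to -1.41. The *Fcrlb* call was lost without WT αMARCO replicate 1 (adjusted P = 0.187 in edgeR) or 2 (adjusted P = 0.151), with all 8 libraries in 1 model (adjusted P = 0.132), and without WT control replicate 2, where the log2 fold change was 0.49. *Fcrl1* was called without WT control replicate 2 (0.79) and *Fcrls* without WT control replicate 1 (0.58).

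In *Unc93b1* 3d/3d TAMs, 0% of 15428 genes passed in edgeR with αMARCO, 744 had an unadjusted P under 0.05, and DESeq2 called 60. *Fcrls* was the member with the greatest difference: it went from 314 and 377 CPM to 144 and 137 CPM, so both αMARCO libraries were below both controls, with a log2 fold change of -1.29 (SE 0.23) and an adjusted P of 0.823 in edgeR. DESeq2 gave -1.31 with an adjusted P of 0.00206. Without *Unc93b1* 3d/3d αMARCO replicate 1 the edgeR value was -1.33 (adjusted P = 3.1e-08), and without replicate 2 it was -1.24 (adjusted P = 2.98e-09), with 5500 and 571 genes called in all. In these fits the remaining αMARCO library is assumed to vary like the controls. *Fcrlb* went from 86.8 and 101 CPM to 118 and 158 CPM (0.57, SE 0.24, adjusted P = 0.823 in edgeR), *Fcrla* had 0.31 (SE 0.47, adjusted P = 0.876) and *Fcrl1* 0.07 (SE 0.35, adjusted P = 0.964). *Fcrl5*, with 2 to 9 counts, was not tested, and a treatment difference at this level was not detectable.

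**Figure D4:**
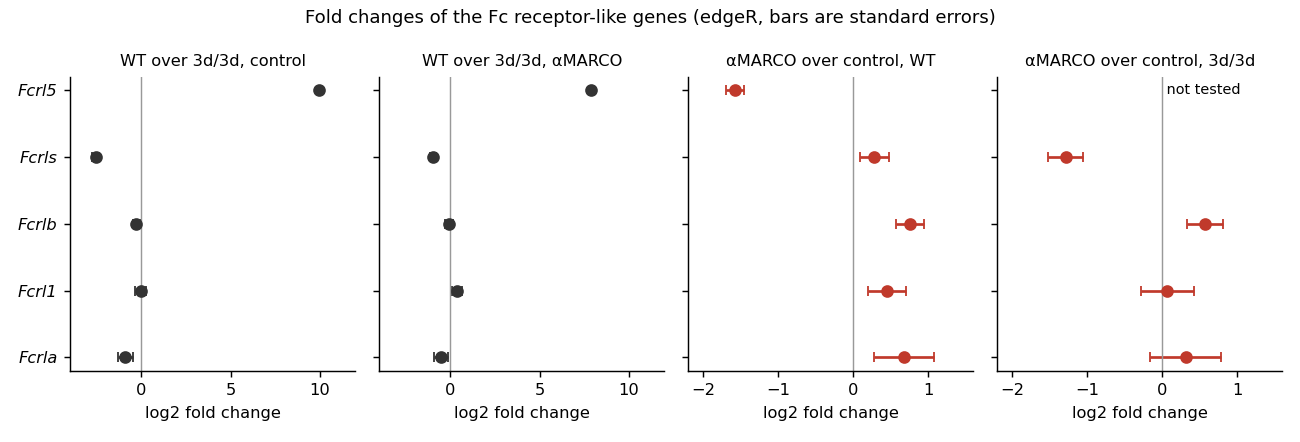
Log2 fold changes with SE (horizontal axes, edgeR, no SE drawn for *Fcrl5* between genotypes) of 5 Fc receptor-like genes in 4 comparisons of 2 against 2 libraries; the genotype panels run from -4 to 12 and the αMARCO panels from -2.2 to 1.6. *Fcrl5* is at 9.99 and 7.87 between genotypes and at -1.58 with αMARCO in WT, and *Fcrls* is at -1.29 with αMARCO in *Unc93b1* 3d/3d and 0.28 in WT.

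Whether αMARCO acted differently in the genotypes was tested over all 8 libraries, as the log2 fold change in WT minus that in *Unc93b1* 3d/3d. The same value is the genotype difference with αMARCO minus that in control. *Fcrl5* and *Fcrls* were picked on genotype values of these libraries, so their P values here are a description and no independent test. In edgeR 0% of 16620 genes passed, with 2549 at an unadjusted P under 0.05, and DESeq2 called 211. The difference was 1.56 (SE 0.29, adjusted P = 0.281) for *Fcrls*, where DESeq2 gave 1.596 with an adjusted P of 0.00068. It was -2.16 (SE 0.66, adjusted P = 0.318) for *Fcrl5*, resting on 2 to 9 counts in *Unc93b1* 3d/3d. For *Fcrl1*, *Fcrla* and *Fcrlb* it was 0.37 (SE 0.41), 0.36 (SE 0.53) and 0.19 (SE 0.31), with adjusted P of 0.624, 0.721 and 0.753 in edgeR. Without *Unc93b1* 3d/3d αMARCO replicate 1 the *Fcrls* difference was 1.62 in edgeR, and without replicate 2 it was 1.503. The *Fcrl5* difference was -1.08 or -2.62 in the same fits. Those of the other 3 members were not called in either fit, at 0.42 or 0.32 for *Fcrl1*, 0.13 or 0.61 for *Fcrla* and -0.00038 or 0.39 for *Fcrlb*.

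Markers of other cell types were read in the same libraries, since *Fcrl5* is best known from B cells and *Fcrls* from microglia. Of 18 B cell markers 3 had at most 3 counts in every library. Among defining B cell genes, *Cr2* had 0 to 2 counts and *Cd79a* 1 to 16, while *Ms4a1* had 7 to 41, *Pax5* 4 to 67 and *Cd22* 136 to 592. Summed over 18 B cell markers the level was 220 and 265 CPM in WT control, 151 and 168 CPM in WT αMARCO, 128 and 136 CPM in *Unc93b1* 3d/3d control and 110 and 123 CPM in *Unc93b1* 3d/3d αMARCO. Of 10 tested, 4 were higher and 1 was lower in WT control than in *Unc93b1* 3d/3d control, and 2 of 9 fell with αMARCO in WT. These counts were 2 and 1 with all 8 libraries in 1 model. *Spib*, for an ETS family factor, was higher in WT control (3.19, SE 0.48, adjusted P = 0.00294 in edgeR) and fell by 4.56 with αMARCO in WT (SE 0.53, adjusted P = 0.000367), at 5.59 CPM or less. *Cd22*, for an inhibitory lectin receptor, was the 1 lower in WT control (-1.05, SE 0.20, adjusted P = 0.00935). *Cd79b*, for a B cell receptor signalling chain, had the order of *Fcrl5*, at 36.7 and 41.2 CPM in WT control, 17.1 and 15.8 CPM in WT αMARCO and 2.26 to 6.22 CPM in *Unc93b1* 3d/3d libraries. *Ighm*, for the IgM heavy chain, was named after its values were seen, and was at 71.6 and 112 CPM in WT control, 52.6 and 60.8 CPM in WT αMARCO and 20.3 to 44.5 CPM in *Unc93b1* 3d/3d libraries. Of the marginal zone and B1 cell list, 3 were higher and 2 lower in WT control of 8 tested, and 3 fell with αMARCO in WT. *Zbtb32* (3.11) and *Cd1d1* (1.59) were higher and *Bhlhe41* (-1.21) and *Plxnd1* (-0.63) lower in WT control, and *Cd5* (-2.85) and *Cd1d1* (-1.16) fell with αMARCO in WT. Of the plasma cell list, 1 of 5 was higher in WT control and 2 of 6 fell with αMARCO in WT. *Irf4* was higher in WT control (1.22) and fell with αMARCO in WT (-0.89), as did *Sdc1* (-1.26).

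T cell markers moved with *Fcrl5* in WT TAMs, as did some of the NK cell and dendritic cell markers. Of all genes, edgeR called 13% between controls and 20.7% with αMARCO in WT. The summed level of 12 T cell markers was 130 and 149 CPM in WT control, 15.1 and 26.1 CPM in WT αMARCO, 80.9 and 72.1 CPM in *Unc93b1* 3d/3d control and 17.2 and 13.1 CPM in *Unc93b1* 3d/3d αMARCO. All 12 fell with αMARCO in WT and 11 of 12 were higher in WT control than in *Unc93b1* 3d/3d control, *Cd4* being lower. The model of all 8 libraries called 9 between controls and 8 with αMARCO in WT. *Cd4* alone was at 61.6 and 62.2 CPM of the *Unc93b1* 3d/3d control sums, and the other 11 markers summed to 112 and 127 CPM in WT control, 19.3 and 9.94 CPM in *Unc93b1* 3d/3d control, 9.76 and 14.9 CPM in WT αMARCO and 5.24 and 6.36 CPM in *Unc93b1* 3d/3d αMARCO. *Cd8a* was 4.46 higher on the log2 scale in WT control (SE 0.45, adjusted P = 0.0011 in edgeR) and fell by 4.79 with αMARCO in WT (SE 0.26, adjusted P = 1.93e-05), and *Cd8b1* had 4.22 and -3.85.

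The sum of 10 NK cell markers was 160 to 180 CPM in WT control and 44.4 to 70.5 CPM in the other 6 libraries, with 4 of 10 higher in WT control and 6 of 10 lower with αMARCO in WT, against 2 and 1 called with all 8 libraries in 1 model. *Klre1* (3.86) and *Nkg7* (3.59) were higher in WT control, and *Nkg7* (-3.62) and *Gzmb* (-3.41) fell with αMARCO in WT. Of 9 dendritic cell markers tested, 2 were higher in WT control and 5 fell with αMARCO in WT, against 2 and 2 called with all 8 libraries in 1 model. *Ccr7* (3.59) and *Xcr1* (1.06) were higher in WT control, and *Ccr7* (-3.60) and *Zbtb46* (-2.84) fell with αMARCO in WT. Of the 6 neutrophil markers, summed at 77.02 CPM or less in every library, 0 were called between controls (edgeR) and 2 of 4 tested, *Cxcr2* (-3.27) and *S100a8* (-2.32), fell with αMARCO in WT, both of them lost with all 8 libraries in 1 model. The part of these cells in the *Fcrl5* values was not tested, and in bulk libraries fewer cells of a type cannot be told apart from less RNA per cell.

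Of 10 macrophage markers, 2 were higher and 3 lower in WT control, and 1 rose and 1 fell with αMARCO in WT, with a summed level of 8643 to 12882 CPM. *Itgam* (0.63) and *Ptprc* (0.53) were higher and *Mertk* (-1.30) lower in WT control, and *Adgre1* fell with αMARCO in WT (-0.54). In edgeR 0 of the 10 were called in either comparison with all 8 libraries in 1 model, while DESeq2 on the 4 control libraries called 5. With αMARCO in WT 1 symbol had a second tested entry. Over these 11 entries edgeR on the 4 WT libraries called 3 and DESeq2 called 2.

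Among 15 nonclassical monocyte markers, a list that includes *Cd300e*, 6 were higher and 1 was lower in WT control than in *Unc93b1* 3d/3d control, with a median log2 fold change of 0.64 against -0.0036 over all genes. With αMARCO in WT 1 rose and 5 fell, with a median of -0.49 against -0.012. The model of all 8 libraries called 4 and 3. *Cd300e* was 6.05 higher on the log2 scale in WT control (SE 0.16), and *Spn*, which encodes CD43, was 2.82 higher (SE 0.13), while *Cx3cr1*, for the fractalkine receptor, was lower (-0.92, SE 0.17). *Adgre4* fell by 1.52 with αMARCO in WT (SE 0.13, adjusted P = 0.000107 in edgeR). *Spn* fell by 1.37 with αMARCO in WT (SE 0.12, adjusted P = 0.000153 in edgeR), while *Nr4a1*, for the orphan nuclear receptor needed by nonclassical monocytes, rose by 0.61 (SE 0.12, adjusted P = 0.00378). The list's summed level was 2037.5 and 2066 CPM in WT control, 1775 and 2025 CPM in WT αMARCO, 877 and 719 CPM in *Unc93b1* 3d/3d control and 1073 and 1358 CPM in *Unc93b1* 3d/3d αMARCO.

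Between controls more genes of the microglia and resident macrophage list were lower than higher in WT, the direction of *Fcrls*, which is not on the list. Of its 16 tested genes, 10 were lower and 2 higher in WT control than in *Unc93b1* 3d/3d control, with a median log2 fold change of -0.92. With αMARCO the list and *Fcrls* differed: in WT 1 of the list rose and 5 fell, where *Fcrls* was not called (0.28), and in *Unc93b1* 3d/3d the median of the list was -0.26, where *Fcrls* had -1.29. The edgeR model of all 8 libraries called 4 of 16 between controls and 0 with αMARCO in WT, while DESeq2 on the 4 libraries of each comparison called 12 and 7. *Gas6* was 5.28-fold and the scavenger receptor gene *Stab1* 4.16-fold higher in *Unc93b1* 3d/3d control. *Stab1* rose by 1.504 with αMARCO in WT (SE 0.10, adjusted P = 4.12e-05 in edgeR). *Olfml3* and *Timd4* were the 2 higher in WT control, by 1.33 (SE 0.29) and 2.34 (SE 0.56), and both calls were lost with all 8 libraries in 1 model (adjusted P = 0.127 and 0.143 in edgeR). *Timd4* (-1.62) and *Olfml3* (-1.49) fell with αMARCO in WT. The microglial genes *Tmem119* and *P2ry12* were present at 6.32 to 109 and 14.8 to 38.1 CPM. *Tmem119* was highest in *Unc93b1* 3d/3d αMARCO at 79.2 and 109 CPM, where *Fcrls* was below its own control level.

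**Figure D5:**
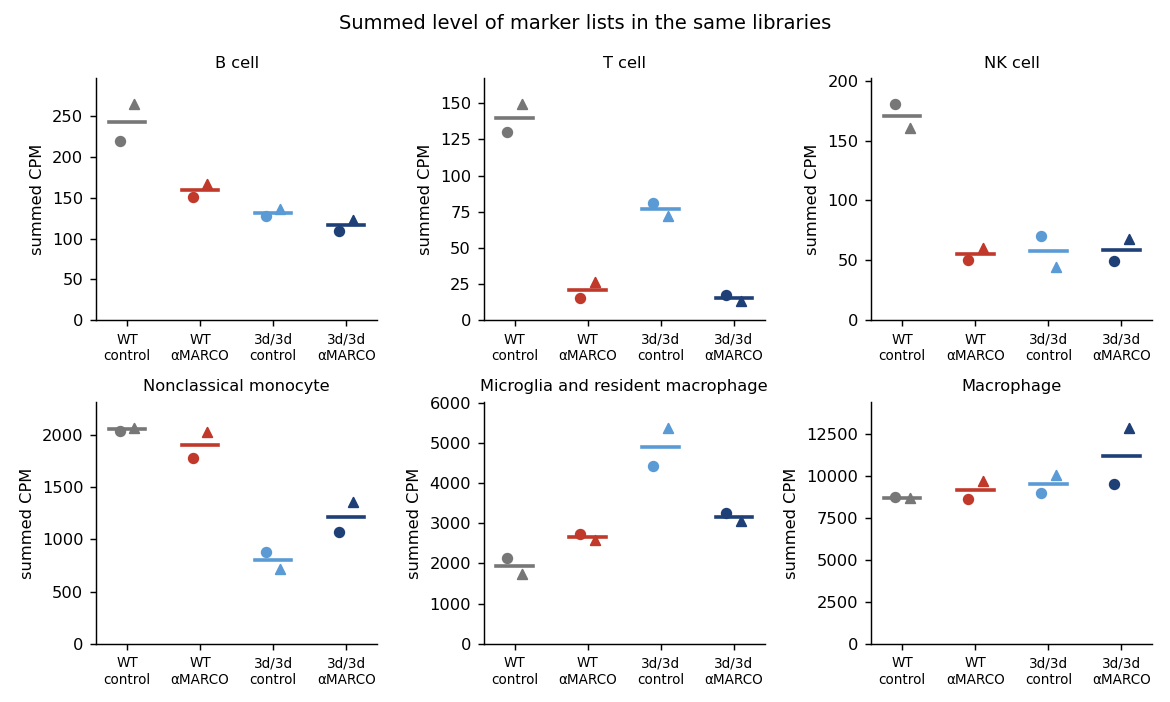
Summed CPM of 6 marker lists in the 8 libraries (linear axes from 0; circles are replicate 1, triangles replicate 2, bars the mean of 2). The T cell sum is 130 and 149 CPM in WT control and 13.1 to 26.1 CPM in the 4 αMARCO libraries, and the microglia and resident macrophage sum is highest in *Unc93b1* 3d/3d control.

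The molecules through which FCRL proteins signal were mostly expressed. Of 22 kinases, phosphatases, adaptors and co-receptors 19 were tested, 7 were higher and 1 was lower in WT control than in *Unc93b1* 3d/3d control, where 13% of all genes were called, and the median log2 fold change was 0.33. With all 8 libraries in 1 model 2 of 19, *Fyn* and *Fgr*, were called in edgeR, and *Inppl1* was not (adjusted P = 0.183). The Src family kinases *Fyn* (1.28, SE 0.092, adjusted P = 5.8e-05 in edgeR) and *Fgr* (0.97, SE 0.099, adjusted P = 0.000412) were the highest, and *Inppl1*, for the lipid phosphatase SHIP2, was lower (-0.67, SE 0.095, adjusted P = 0.0022). With αMARCO in WT, *Fyn* fell by 0.83 (SE 0.074, adjusted P = 0.000117), the tetraspanin gene *Cd81* fell by 0.73 (SE 0.095, adjusted P = 0.000599) and *Inppl1* rose by 0.66 (SE 0.085, adjusted P = 0.000571). The median of the list there was -0.17.

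Of 13 classical Fc receptor genes 7 were tested. *Fcgr4* and the shared signalling chain *Fcer1g* (0.56, SE 0.11, adjusted P = 0.0093 in edgeR) were higher in WT control. With all 8 libraries in 1 model *Fcgr4* was called (adjusted P = 0.0139) and *Fcer1g* was not (adjusted P = 0.334). With αMARCO in WT, *Fcgr4* fell by 0.71 (SE 0.12, adjusted P = 0.00206), the neonatal receptor gene *Fcgrt* fell by 0.75 (SE 0.13, adjusted P = 0.00486) and the inhibitory receptor gene *Fcgr2b* rose by 0.56 (SE 0.11, adjusted P = 0.00469). *Fcgr4* thus had the direction of *Fcrl5* in both comparisons, but was at 141 and 172 CPM in *Unc93b1* 3d/3d control, where *Fcrl5* was at 0.126 and 0.254 CPM. *Fcgr2b*, at 1014 to 1771 CPM in all libraries, had the direction of *Fcrlb* in WT. With all 8 libraries in 1 model the αMARCO calls in WT of *Fcgr4* (adjusted P = 0.185), *Fcgr2b* (adjusted P = 0.15), *Fcgrt* (adjusted P = 0.167), *Cd81* (adjusted P = 0.138), *Inppl1* (adjusted P = 0.154) and *Fyn* (adjusted P = 0.0511) were lost in edgeR, at nearly the same fold changes.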

How the data were processed

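TAMs sorted from EO771 tumors were profiled by poly-A RNA-seq. Per the labels and the study's methods, reads were cleaned with fastp, aligned to GRCm38 with HISAT2 2.0.5 and counted per gene with featureCounts 1.5.0; whether counting used strand is not given in the sources used here. The authors deposited 3 tables with raw counts per gene, without normalization, and FPKM, which the authors scaled to gene length and library total (the methods name TPM). Library totals implied by the deposited FPKM values were close to the count totals. The tables also hold size-factor-normalized counts, group means and the authors' DESeq2 1.40.2 fold changes and P values for their comparisons, which were not used.

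Raw counts were joined by gene identifier into 26939 genes. Of 95230 counts present in more than 1 table, 0 differed, and genes that a table did not list were set to 0 counts there. Comparisons of 2 against 2 libraries were fitted in R 4.3.3 with edgeR 4.0.16 (TMM, filterByExpr, robust quasi-likelihood test, Benjamini-Hochberg adjustment over all genes tested), and the difference between genotypes over all 8 libraries. A gene was called with an adjusted P no greater than 0.05 and a log2 fold change of 0.5 or more in either direction. CPM used TMM factors over 8 libraries. The SE was the absolute log2 fold change divided by the root of F, which is too narrow for genes with a few counts in a group. Alternatives were DESeq2 1.42.0, DESeq2 size factors, other filters, all 8 libraries in 1 model, a replicate block and leaving out each library. Scripts were tested on simulated data. The study describes each control library as a pool of 3 mice. The mice behind the αMARCO libraries are not given in the sources used here, so P values there measure the spread between libraries, which may be technical. Intervals and floors cover counting error only.

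The named genes were all 6 members, the 5 genes with the highest r to *Fcrl5* and *Fcrls*, tested neighbours within 200 kb, and from each list up to 2 with the highest and 2 with the lowest log2 fold change among those called; some are not reported here. The members and lists were chosen with earlier results of these data known. Deposited positions of all 6 members were identical in GENCODE M21. Promoter windows were from RefSeq (GRCm38.p6).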

Additional observations from a re-analysis of the deposited data

How the results depend on the processing

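Of 252 recomputed fold changes of members under the alternatives, 232 kept their direction and their side of the threshold, or for genotype values moved by less than the spread between replicates; 4 lost a call, 10 gained one, 3 moved and 3 reversed. The reversed values were small: *Fcrl1* with αMARCO in *Unc93b1* 3d/3d TAMs without *Unc93b1* 3d/3d control replicate 2 (-0.0368, up to 0.18 with other libraries left out), and the difference between genotypes for *Fcrlb* without WT control replicate 2 (-0.0758) or *Unc93b1* 3d/3d αMARCO replicate 1 (-0.000376, up to 0.50 with other libraries left out). Of 742 values of other named genes 97 lost a call and 0 reversed. Leaving out 1 library lost the call between controls of *Nkg7*, *Ccr7*, *Timd4*, *Olfml3*, *Xcr1*, *Plxnd1*, *Ptprc*, *Fcer1g*, *Dusp12* and *Kirrel*, and with αMARCO in WT of *Ccr7*, *Zbtb46*, *Cxcr2*, *S100a8*, *Timd4*, *Slamf9*, *Irf4*, *Sdhc*, *Fcgr2b*, *Adgre1* and *Nr4a1*, and all of these kept their direction.

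Genes called between genotypes in control TAMs numbered 2025, and 364 with all 8 libraries in 1 model, with 1493 to 2232 when a library was left out. Between genotypes with αMARCO, 0 genes became 214 with DESeq2, 107 without the filter, 108 with all 8 libraries and 97 with the replicate block, and 17 to 6366 with a library left out. With αMARCO in WT, 3236 genes became 164 with all 8 libraries (1 member), and 1940 to 3951 genes and 1 to 3 members with a library left out. With αMARCO in *Unc93b1* 3d/3d, 0 genes became 60 with DESeq2 (1 member), 174 without the filter (1 member), 1 with all 8 libraries and 5 with the replicate block, and 1 to 5500 genes and 0 to 2 members with a library left out. For the difference between genotypes, 0 genes became 211 with DESeq2 (1 member) and 152 without the filter (1 member), and 0 to 6440 genes and 0 to 1 members with a library left out. The highest of the last ranges came without *Unc93b1* 3d/3d αMARCO replicate 1, and the cause was not tested.

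The replicate numbers were not shown to pair the libraries: deviations of same-numbered libraries correlated at -0.077 to 0.136 between groups. With 2 libraries a group, small differences of the low genes *Fcrl1*, *Fcrla* and *Fcrl6* were not detectable at this depth.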
